A study of Rattus norvegicus with 61 samples.

Results

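The transcripts described here were those found in rat whole blood at a level above spleen, low in each of 6 sorted immune cell types and low in liver. Levels were expressed in CPM, the deposited count of a transcript divided by the total of its sample and multiplied by 1000000. A transcript was kept if its mean was under 2 CPM in every sorted type, if its mean over all 15 livers was under 1 CPM, and if its mean in whole blood cells exceeded its mean in spleen. Of 31196 transcripts, 2522 (8.08%) met these limits, and the 100 with the highest mean in whole blood cells were the members, which were thus chosen by the measured means in blood, spleen, liver and the sorted types. They are called by their rank on that mean, rank 1 being the highest. CPM values are not corrected for transcript length, so the ranks do not order the members by number of molecules.

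The study built reference profiles of rat immune cells for deconvolution, the estimation of cell proportions from the RNA of a mixture. All 61 samples came from wild-type male Sprague-Dawley rats bought at 6 weeks of age. B cells, NK cells, CD4 T cells and CD8 T cells were sorted by flow cytometry from spleen, and neutrophils and monocytes from blood, with 6 samples of each type and 36 in all. The mixtures were 5 samples of whole blood cells, which were heart blood of untreated rats after lysis of the erythrocytes, 5 of spleen cell suspensions treated likewise, and 15 perfused livers. The livers were taken 24 h after gavage of fasted rats and fell into 3 groups of 5: Ctrl received 0.5% methylcellulose, the vehicle, APAP received acetaminophen at 3 g/kg, and MDA received 4,4′-methylene dianiline at 300 mg/kg. Acetaminophen at high dose injures hepatocytes, and methylene dianiline injures the bile ducts. Sorted cells, blood and spleen came from untreated rats. The labels do not tie samples to animals, so every spread and p-value below is over these samples.

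Circulating blood holds more than the 6 sorted types. Platelets carry RNA inherited from megakaryocytes, reticulocytes still carry RNA of the red cell lineage, and eosinophils, basophils and dendritic cells circulate in small numbers. The sort gates chose cells by their surface proteins, and the neutrophil gate took CD11b+ cells with intermediate CD43 and high side scatter. The deposited Ensembl identifiers are not paired with gene names, and none of the 31196 occurred among the 47357 genes of the rat RefSeq table used here. Which genes, and which cells, these transcripts belong to was therefore not tested, and the marker lists of the sorted types and of other blood cells could not be applied. Rank 1 is ENSRNOT00000075148 and rank 2 is ENSRNOT00000003794.

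Deposited totals ran from 3429971 in neutrophil replicate 5 to 14146402. Whole blood cells had 9961625 to 11273769 and spleen had 10177572 to 13587693. The members were scarce transcripts. Their means in whole blood cells ran from 1.16 to 13.9 CPM with a median of 1.53 CPM, against a median of 12.8 CPM over the 13306 transcripts with a mean at or above that of rank 100. These 13306 transcripts are the background for the counts below. At the edge of the list, rank 99 had a mean of 1.16 ± 0.198 CPM (SD, n = 5) and rank 100 had 1.16 ± 0.971 CPM. Just outside it, rank 101 had 1.15 CPM, which came from 1 sample at 5.77 CPM with 0 in the other 4, and rank 102 had 1.15 ± 0.599 CPM. The members summed to a mean of 199 ± 32.1 CPM in whole blood cells, 73.7 ± 6.10 CPM in spleen and 57.9 to 110 CPM in the 36 sorted samples.

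Transcripts missing from the sorted types was not a fair name for most members. In 43 of the 100 the mean in whole blood cells was below the highest of the 6 sorted means, as it was in 98.4% of the background. In 48 members a sorted type had a mean of at least 1.5 CPM, close to the limit of 2 CPM. In 81 at least 1 sorted sample lay above the mean of whole blood cells, and in 54 at least 1 lay above every whole blood sample. The ratio of the whole blood mean to the highest sorted mean had a median of 1.08 over the members and 0.618 over the background, and the limit of 2 CPM itself favours a higher ratio. The sorted type with the highest mean was spread over the members, with 26 highest in neutrophils, 17 in B cells, 15 in CD4 T cells, 15 in monocytes, 14 in CD8 T cells and 13 in NK cells.

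**Figure D1:**
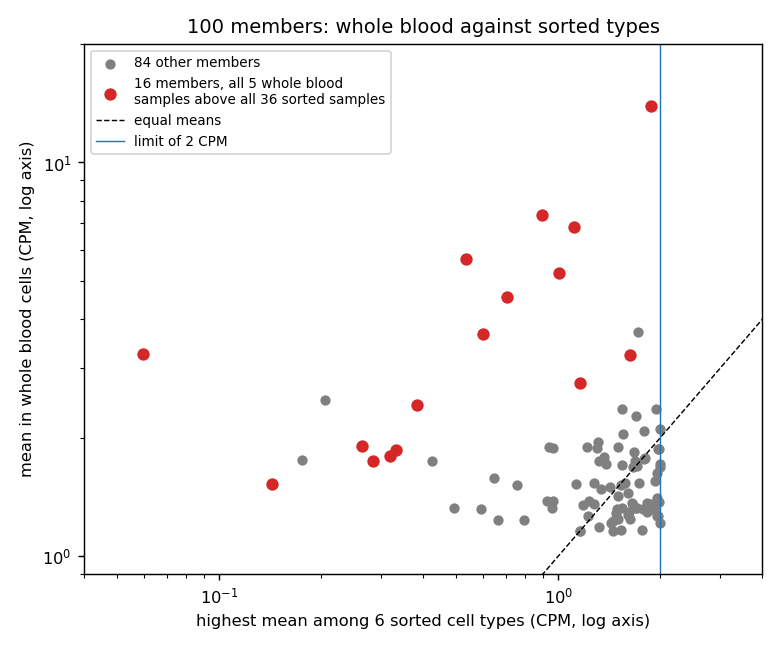
Mean in whole blood cells against the highest mean among the 6 sorted types for the 100 members, both in CPM on log axes. Points under the dashed line of equal means (43 members) were higher in a sorted type, and most of the 84 grey points crowd around that line just left of the limit of 2 CPM, while the 16 red ones all lie above the line.

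In 16 members all 5 samples of whole blood cells lay above all 36 sorted samples. Over the background this held for 30 transcripts (0.225%), and because the rule caps the sorted means, the share among members is a description and no test was made. The 16 were ranks 1 to 6, 8 to 11, 13, 21, 29, 31, 37 and 53, so they held 9 of the first 10 places and only 1 of the last 50. They were singled out after their values had been seen. The remaining 14 of the 30 transcripts were not members because of the limits, 10 with a sorted mean of 2 CPM or more and 12 with a liver mean of 1 CPM or more, 8 of them with both.

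Rank 1 had 9.47, 11.2, 21.2, 13.4 and 14.3 CPM in whole blood cells, in the order of replicates 1 to 5. In spleen it had 1.91, 1.09, 1.08, 0.805 and 0.894 CPM, and in sorted neutrophils 0.521, 1.73, 2.01, 1.84, 2.53 and 2.65 CPM. The lowest blood sample was thus well above the highest spleen or neutrophil sample. Rank 2 had 2.68, 9.07, 10.5, 5.22 and 9.40 CPM in whole blood cells against 0.159, 0.592, 0.535, 0.115 and 0.581 CPM in spleen. Its 6 neutrophil samples ran from 0.403 to 1.47 CPM, and its highest sample of the other types was an NK cell sample at 1.06 CPM. Groups did not overlap, although its lowest blood value was a small fraction of its highest.

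Rank 3 had 4.60, 5.21, 10.2, 6.10 and 8.13 CPM in whole blood cells and 0.803, 1.01, 0.597, 0.416 and 0.531 CPM in spleen. Rank 4 had 3.33, 3.73, 7.86, 5.23 and 8.33 CPM in whole blood cells and 0.389, 0.690, 0.338, 0.601 and 0.291 CPM in spleen. Both showed the same high samples, replicates 3 and 5 of whole blood, with no overlap with spleen. Rank 5 had 3.73, 4.41, 8.16, 3.38 and 6.43 CPM in whole blood cells and was listed at 0 in 4 spleens and at 1.02 CPM in the fifth. Ranks 6, 8 and 11 ran from 2.66 to 6.13 CPM, from 2.45 to 5.77 CPM and from 2.01 to 3.97 CPM in whole blood cells, and replicate 3 was the highest sample in each of them.

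Rank 9 had the lowest of the highest sorted means of the 16, 0.0594 CPM in neutrophils, and rank 13 was the only one listed at 0 in every liver. Rank 13 had 2.31, 1.38, 4.24, 1.34 and 2.80 CPM in whole blood cells. It was listed at 0 in 4 of 5 spleens (0.263 CPM in the other), in all 15 livers and in all 6 monocyte samples, and its neutrophil samples ran from 0 to 0.821 CPM. Rank 9 had 2.06, 1.78, 4.89, 3.06 and 4.48 CPM in whole blood cells, with 0.357 CPM in 1 neutrophil sample and 0 in the other 5. It was the single transcript of the 16 that overlapped with liver, where its mean was 0.586 CPM and its highest sample, a Ctrl liver, had 2.19 CPM.

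Ranks 10 and 53 were the least clear of the 16. Rank 10 had 2.84, 2.51, 3.80, 4.30 and 2.79 CPM in whole blood cells, yet its means were 1.63 CPM in neutrophils and 1.51 CPM in monocytes, and its highest sorted sample, from monocytes, reached 2.17 CPM. Rank 53 had 1.39, 0.888, 2.76, 1.20 and 1.38 CPM in whole blood cells, and its highest spleen sample, at 0.927 CPM, lay above the lowest of these. It was listed at 0 in all 6 neutrophil samples, and its highest sorted value was 0.847 CPM in a B cell sample. The other ranks of the 16, namely 21, 29, 31 and 37, had blood samples between 1.15 and 3.39 CPM, and none of their sorted samples exceeded 0.699 CPM.

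**Figure D2:**
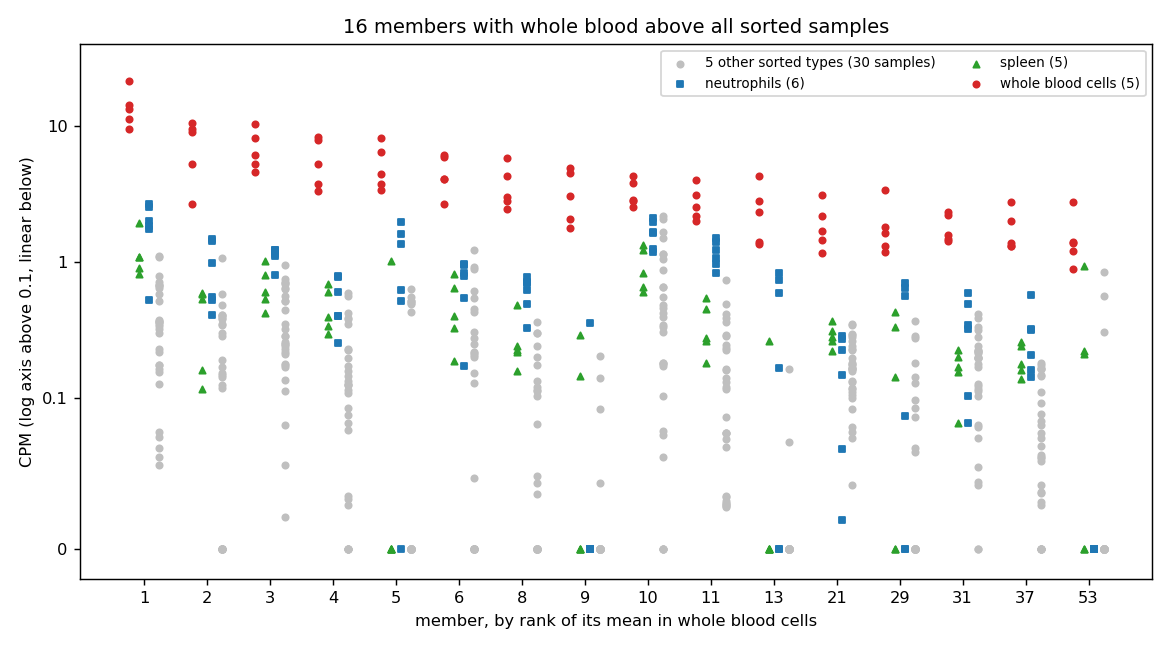
CPM of the 16 members in single samples of whole blood cells (red), neutrophils (blue), spleen (green) and the other 5 sorted types (grey), on an axis that is logarithmic above 0.1 CPM and linear below. The red points of each member stand above all blue and grey ones, as the choice of the 16 required. Among the sorted samples the blue ones usually come next, as at rank 1 where they end at 2.65 CPM.

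Summed over the 16, whole blood cells had 46.3, 54.0, 101, 58.7 and 78.7 CPM, a mean of 67.8 ± 22.1 CPM (SD, n = 5). Neutrophils came next with 8.99 to 12.8 CPM and a mean of 11.1 ± 1.40 CPM (SD, n = 6). Monocytes had 2.08 to 5.98 CPM, B cells 1.10 to 6.10 CPM, NK cells 1.74 to 5.74 CPM, CD4 T cells 1.23 to 4.18 CPM and CD8 T cells 0.803 to 2.40 CPM. Every neutrophil sample was thus above every sample of the other 5 types. That it lay below every blood sample follows from how the 16 were chosen. The neutrophil sample with 12.8 CPM was replicate 5, the shallowest library, and the other 5 neutrophil samples also lay at or above 8.99 CPM.

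Neutrophils had the highest sorted mean in 14 of the 16, against 12 of the other 84 members and 15.0% of the background. Rank 21 was highest in B cells and rank 53 in monocytes. The median of the 16 means was 0.567 CPM in neutrophils, 0.156 CPM in B cells, 0.152 CPM in NK cells, 0.124 CPM in monocytes, 0.103 CPM in CD4 T cells and 0.0889 CPM in CD8 T cells. As a percentage of the whole blood mean, the neutrophil mean had a median of 16.1% over the 16 and ran from 0% at rank 53 to 50.1% at rank 10. Single samples were less orderly. The neutrophil mean exceeded the monocyte mean in 15 of the 16, but all 6 neutrophil samples lay above all 6 monocyte samples in only 3 of them, beside 6.82% of the background, and the highest sorted sample was a neutrophil sample in 12. Since the means in the sorted types had to be under 2 CPM, these values describe the members and were not tested.

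Spleen was low for the same 16. The ratio of the whole blood mean to the spleen mean had a median of 10.6 over them and ran from 3.50 at rank 10 to 45.9 at rank 13, with 13 of 16 above 8. Few counts in spleen stood behind the highest ratios. The reads were taken as the estimated counts or as the number of times the transcript's smallest value was contained in its level, whichever was fewer, since the value of 1 read is not known. At rank 13, 127 reads in whole blood cells faced 3 in spleen, a ratio of 45.9 with a 95% interval of 15.2 to 223, and at rank 9, 171 faced 5, a ratio of 37.7 (15.4 to 114). At rank 5, 62 faced 2, a ratio of 25.6 (8.83 to 281), where the estimated counts were 273 and 11. These intervals cover approximate counting error only, and not the spread between samples. The rule had asked for a higher mean in blood, and ranks 13, 9 and 5 were picked for the highest ratios. The intervals therefore describe counting precision and test no difference. Whole blood and spleen differ in their mixture of cells, and in bulk RNA fewer cells of a type and less RNA per cell cannot be told apart.

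Over all members, the 5 blood samples lay above all 5 spleen samples in 20, 15 of them among the 16, beside 10.8% of the background. The rule had asked for a higher mean in blood, so nothing is read from that count. The other 5 were ranks 15, 23, 32, 91 and 93. Rank 23 had 1.67, 0.75, 3.17, 1.95 and 1.93 CPM in whole blood cells and 0.073 to 0.371 CPM in spleen, but its monocyte samples ran from 0.441 to 2.29 CPM and its neutrophil samples from 0.69 to 1.42 CPM. Rank 91 had 0.94, 1.44, 1.44, 1.28 and 1.06 CPM in whole blood cells and at most 0.378 CPM in spleen, with neutrophils from 0.323 to 1.27 CPM. Both were transcripts of blood that the blood-derived sorted cells also carried. Over the 100 members the median ratio to spleen was 2.17, and 46 of the 93 with spleen above 0 exceeded 2. The median was 2.05 with the 7 members at 0 in all spleens set against a floor of 3 times their smallest value over the group. The lowest ratio was 1.01, and the members nearest to equality were ranks 18, 56 and 92.

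The 16 also shared a profile over the blood samples. Replicate 3 of whole blood cells was the highest sample in 14 of them, replicate 4 at rank 10 and replicate 5 at rank 4. It was highest in 24 of the other 84 members and in 38.7% of the background. Replicate 3 divided by the mean of the other 4 samples gave a median of 1.74 over the 16, from 1.22 to 2.30, and exceeded 1 in all 16. Over the other 84 members that median was 1.04, with 45 of 84 above 1, and over the background it was 1.08, with 65.7% above 1. Of the 14 further transcripts whose blood samples also lay above all sorted samples, 12 were highest in replicate 3 and 11 had their highest sorted mean in neutrophils. Replicate 3 had the lowest total of the 5 samples, 9961625 against 10358924 to 11273769 in the others. The part of depth, or of other cells in that sample, in this profile was not tested.

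**Figure D3:**
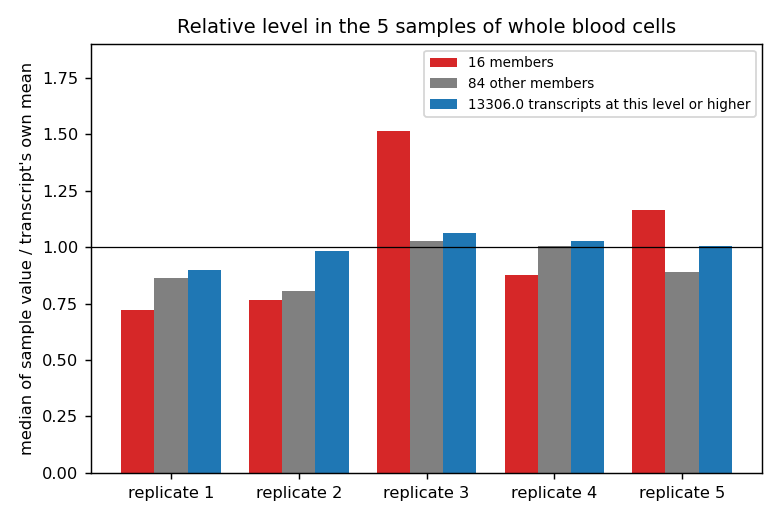
Median, over the transcripts of each set, of the value in a whole blood sample divided by the transcript's own mean over the 5 samples. The 16 members (red) stand at 0.722, 0.767, 1.51, 0.877 and 1.17 in replicates 1 to 5, while the 84 other members (grey) and the 13306 background transcripts (blue) stay between 0.807 and 1.06 throughout.

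All 16 were still members when the list was chosen again without replicate 3 of whole blood cells. That their blood samples then still lay above all sorted samples follows from having lain there with all 5. The spread of the 16 over the blood samples was large. Their coefficient of variation had a median of 38.1% and ran from 23.4% to 49.5%, against 14.7% over the background, most of which had higher levels.

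The other 84 members did not meet the criterion of the 16. The cut was drawn after the values were seen, and whether it parts different kinds of transcripts was not tested. Their sum was 120 to 149 CPM in whole blood cells, with a mean of 131 ± 11.2 CPM, 61.2 to 74.5 CPM in spleen and 53.6 to 109 CPM in the sorted samples, where the 6 types overlapped with each other and with spleen. Blood was the highest group in the sum, which follows from the choice by blood mean. The median coefficient of variation over the blood samples was 67.7%. Of the 84, 49 were above 0 in all 5 blood samples, beside 96.8% of the background. All of the 16 were, which follows from how they were chosen. Over the 100 members, 16 were above 0 in exactly 4 blood samples, 7 in 3, 7 in 2 and 5 in 1.

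**Figure D4:**
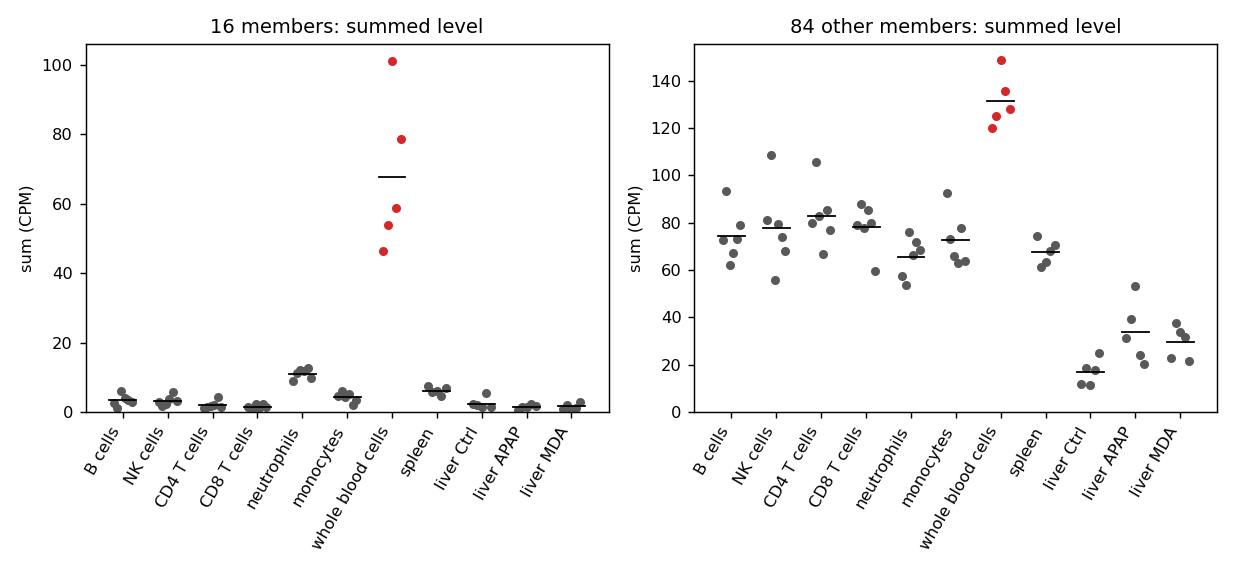
Summed CPM per sample of the 16 members (left) and of the 84 other members (right) in the 11 groups, with group means as lines and both axes linear from 0. In the left panel only whole blood cells (46.3 to 101) rise clear of 12.8. For the sorted types this follows from how the 16 were chosen. In the right panel the sorted types and spleen share a broad band from 53.6 to 109 beneath whole blood cells at 120 to 149.

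Several of the 84 owed their place to few samples. Rank 12 had 8.25 and 4.19 CPM in replicates 1 and 4 of whole blood cells and was listed at 0 in the other 3. Rank 14 had 8.21 and 3.62 CPM in replicates 3 and 4 and 0 elsewhere in blood, and its highest sorted mean was 1.55 CPM in B cells. Rank 25 had 9.42 CPM in replicate 4 and 0 in the other 4, and rank 26 had 9.42 CPM in replicate 3 and 0 in the other 4. Ranks 43, 61 and 80 likewise rested on a single blood sample at 8.49, 6.92 and 6.51 CPM, and each had a sorted sample at 10.2, 4.53 and 8.50 CPM respectively. For rank 43 and rank 80 that sorted sample was higher than the blood sample. In 8 members the highest blood value was more than 3 times the next.

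The deposited values are estimated counts, and the smallest value above 0 differed widely between transcripts. It need not stand for 1 read, since the value of 1 read is not known. Among 2098 transcripts above 0 in 8 to 15 samples, the smallest value above 0 ran from 0.0212 CPM at the 5th percentile to 41.9 CPM at the 95th, and the next smallest was typically 1.12 times it. Among members the smallest value above 0 ran from 0.0191 to 4.06 CPM. In 14 members, none of them among the 16, the 5 blood samples together came to under 10 times the smallest value. In 5 members they came to under 5 times. The 16 had a median of 346 times. These multiples are not numbers of reads.

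Blood levels were even at rank 93, 1 of the 84, with 1.26, 1.05, 1.28, 1.34 and 1.16 CPM and an SD of 0.116 CPM. Its mean in CD4 T cells, however, was 1.99 CPM, just under the limit. Rank 7, the only one of the first 8 that was not among the 16, had 3.42, 3.56, 2.77, 5.20 and 3.59 CPM in whole blood cells, and 1 of its sorted samples reached 7.97 CPM. Rank 35 was the opposite case, with 0.37, 1.28, 3.14, 1.72 and 2.28 CPM in whole blood cells, 0 in all 6 neutrophil samples and at most 0.664 CPM in any sorted sample. It missed the 16 because its replicate 1 fell below that value.

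Liver gave a readout that the choice had used only as a mean over all 15 samples, so differences between the treatments could be tested. The members were low there. Their liver means had a median of 0.219 CPM, 12 were at 0 in all livers, and 68, of which 7 were among the 16, reached the mean of 0.1 CPM needed for the test. Their sum was 12.6 to 26.2 CPM in Ctrl, 22.2 to 54.9 CPM in APAP and 23.5 to 39.7 CPM in MDA livers, while the 16 together had 0.442 to 5.34 CPM over the 15 livers. These sums use library totals. TMM factors computed over all 61 samples were 0.404 to 0.610 in Ctrl, 0.785 to 0.963 in APAP and 0.651 to 0.810 in MDA livers. The gap between groups thus depends on the scaling. The test below used TMM factors computed on the 15 livers alone, which are not given here. edgeR's quasi-likelihood test with Benjamini-Hochberg adjustment over 18427 transcripts was used for each pair of groups, and the 3 comparisons share samples with each other.

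Fewer members than transcripts in general passed the test. Between APAP and Ctrl, 2 of the 68 were higher, beside 16.1% of all transcripts tested, and 2 were lower, beside 15.4%. Between MDA and Ctrl 1 was higher, beside 7.99%, and 1 was lower, beside 8.07%. Between APAP and MDA none was higher, beside 12.1%, and 3 were lower, beside 12.2%, while at an unadjusted p under 0.05, 6 were higher and 4 lower. The members' low counts limit what such a test can detect. The median log2 fold change of the 68 was 0.14, 0.01 and 0.16 in these 3 comparisons, and that of all transcripts was 0.06, 0.02 and 0.01. Scaling by library totals alone moved the medians over all transcripts to 0.73, 0.54 and 0.16, and those of the members to 0.81, 0.33 and 0.26.

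Rank 95 showed the clearest difference between liver groups. It was listed at 0 in 4 Ctrl livers and at 0.176 CPM in the fifth. In APAP livers it had 1.12, 2.58, 2.22, 1.68 and 0.825 CPM, and in MDA livers 0.784, 0.178, 0.293, 0.917 and 0.901 CPM. By CPM on library totals, every treated liver was above every Ctrl liver, by a narrow margin in MDA replicate 2. The test used TMM factors of the livers alone, and those over all samples were 0.610 in Ctrl replicate 5 and 0.799 in MDA replicate 2. With the factors over all samples the order of those 2 livers reverses. The log2 fold change was 4.69 (SE 0.89, adjusted p = 0.000867 by edgeR) for APAP and 3.52 (SE 0.88, adjusted p = 0.0125 by edgeR) for MDA. The reads, scaled by library totals without TMM here and below, gave ratios of 47.7 (95% counting interval 13.2 to 410) and 17.4 (4.59 to 152). Both calls were kept in all 23 alternative fits. The sizes rested on the Ctrl liver with a value above 0, replicate 5, and without it the fitted log2 fold changes were 7.06 and 5.89, which depend on the prior count because Ctrl is then at 0 throughout.

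Rank 84, ENSRNOT00000061159, fell in APAP livers. It had 0.486, 0.938, 0.691, 0.275 and 0.452 CPM in Ctrl livers, 0.233 CPM in 1 APAP liver and 0 in the other 4. MDA livers had 1.21, 1.18, 0.162, 0.160 and 1.41 CPM, so 2 of them were within the APAP range. The log2 fold change was -3.86 against Ctrl (SE 1.03, adjusted p = 0.00986 by edgeR) and -3.87 against MDA (SE 1.03, adjusted p = 0.0122 by edgeR), and both calls were kept in all 22 alternative fits. The reads of Ctrl and of MDA livers over those of APAP livers gave ratios of 12.2 (95% counting interval 2.86 to 101) and 17.7 (4.16 to 139). Without APAP replicate 1, the APAP liver above 0, the fitted values were -6.21 and -6.22, which depend on the prior count for the same reason.

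Rank 1, the transcript with the highest mean in blood, fell in MDA livers. It had 0.535, 0.311, 0.383, 0.504 and 0.142 CPM in Ctrl livers. It was listed at 0 in 3 MDA livers, with 0.064 and 0.061 CPM in the others, below every Ctrl liver. APAP livers spread from 0 to 0.600 CPM and overlapped with both groups. The log2 fold change between MDA and Ctrl was -3.86 (SE 1.04, adjusted p = 0.0192 by edgeR), and 22 reads faced 2, a ratio of 15.0 (2.89 to 103). The call was kept in 21 of 22 alternative fits and lost with a replicate block (adjusted p = 0.056 by edgeR). All of these levels were a small fraction of the 13.9 CPM in whole blood cells, and the blood left in the perfused livers was not measured in these files.

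The other 4 calls each set a group listed at 0 in all 5 livers against a few positive ones. Folds are therefore given only against a floor of 3 times the transcript's smallest value over the group, which is a convention and no lower bound. Rank 16 had 3.06, 2.26, 1.45, 0 and 0 CPM in APAP livers and 0 in all Ctrl livers. APAP was 4.5-fold above the floor (adjusted p = 0.0476 by edgeR). Rank 77 had 1.52 and 1.26 CPM in 2 Ctrl livers, 0 in the other 3 and 0 in all APAP livers. Ctrl was 2.39-fold above the floor (adjusted p = 0.049 by edgeR). Groups overlapped at 0 in both, and the positive values came to only 13 and 7 times the smallest value (78 and 32 estimated counts). Rank 47 was at 0 in all APAP livers and had 2.09, 4.08 and 1.95 CPM in 3 MDA livers. MDA was 1.76-fold above the floor (adjusted p = 0.0392 by edgeR). Rank 94 was at 0 in all APAP livers and had 1.43, 1.30, 1.28 and 3.26 CPM in 4 MDA livers. MDA was 2.48-fold above the floor (adjusted p = 0.0371 by edgeR). At these ranks the positive values came to 5 and 7 times the smallest value (109 and 86 estimated counts). None of the 4 was kept in every alternative fit. The call at rank 77 was kept in 3 of 22, with adjusted p from 0.0442 to 0.243, rank 16 in 11 of 23 (0.0211 to 0.0849), rank 47 in 13 of 23 (0.0255 to 0.0778) and rank 94 in 13 of 23 (0.0168 to 0.0672). Leaving out any 1 of the 5 Ctrl livers ended the call at rank 16, as did leaving out APAP 1, 2 or 3 or MDA 3. Leaving out any 1 of the 5 APAP livers ended the calls at ranks 47, 77 and 94, as did leaving out MDA 2, 3 or 5 at rank 47, MDA 1, 2, 3 or 4 at rank 94, and Ctrl 4 or 5 or any MDA liver at rank 77.

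**Figure D5:**
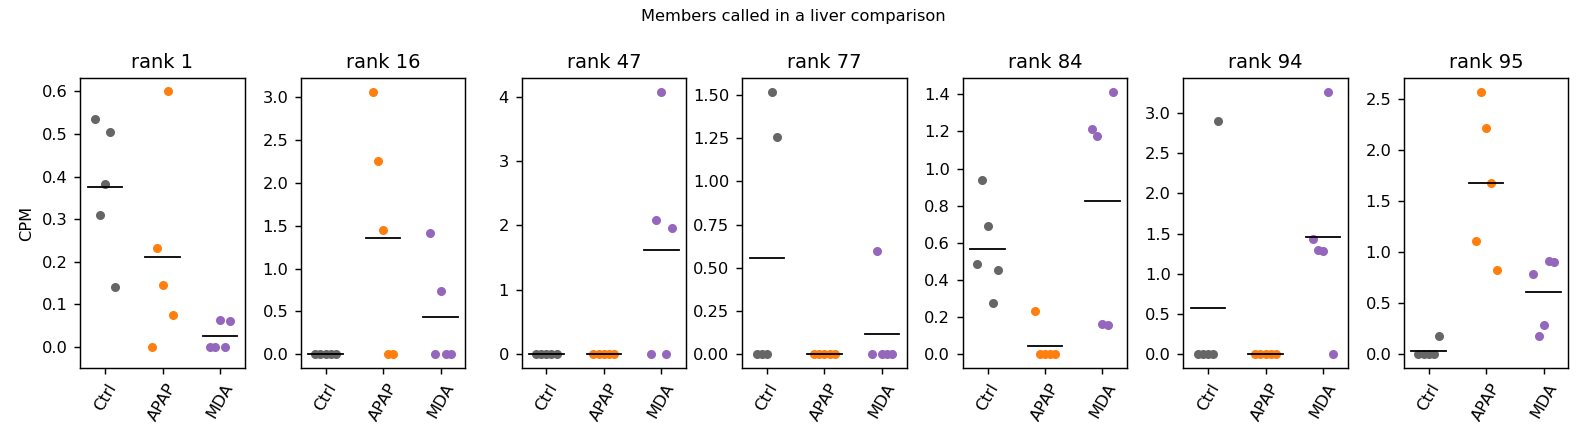
CPM of the 7 members called in at least 1 liver comparison, by sample, in Ctrl, APAP and MDA livers, with group means as lines and a linear axis of its own for each member. Ranks 95, 84 and 1 differ in most samples of a group, whereas ranks 16, 47, 77 and 94 show 5 samples at 0 in 1 group against 2 to 4 samples above 0 in another.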

How the data were processed

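Per the labels and the study's methods, the authors trimmed paired reads with PRINSEQ++, quantified Ensembl Rnor_6.0 cDNA with Salmon 1.6.0 and imported the values with tximport in R 4.1.3. The submitters' processing notes also name mRatBN7.2. The methods speak of TPM. Since the deposited columns have unequal totals (3429971 to 14146402), the deposited values, which are not whole numbers, were used as estimated counts. The value of 1 read cannot be read off them.

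All 61 columns were mapped by name. CPM used column totals. Liver groups were compared with edgeR 4.0.16 in R 4.3.3 on counts rounded to whole numbers, with TMM scaling, a mean of at least 0.1 CPM over the 15 livers, 1 fit of all 3 groups, two-sided tests and an adjusted p threshold of 0.05. The script was tested on simulated data. Alternatives were DESeq2 1.42.0, limma 3.58.1 on log2(CPM + 0.1) and log2(CPM + 1), other filters and scalings, a replicate block, each liver left out, and changed limits of the rule. Everything the rule used (blood, spleen and sorted means) was described without tests. The members and lists were chosen with earlier results of these data known. The rule of naming covered ranks 1 to 25, the members with extreme spleen ratios or blood spread, the list's edge and members called in liver, by rank where no identifier is printed. Ranks 17, 19, 20, 22 and 24 fell under it but were not described singly. Their whole blood means were 1.89 to 2.10 CPM and their highest sorted means 0.937 to 1.99 CPM, and none belonged to the 16. Ranks outside this rule (the 16, and ranks 26, 32, 35, 91 and 93) were named after their values were seen. Precision follows from totals and from the few counts behind each member.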

Additional observations from a re-analysis of the deposited data

Results flagged for a closer look

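In 7 of 54 groups of samples examined, 1 sample stood far from the others by Dixon's criterion. Some of these groups had been chosen for their spread, so the count is not set against a rate by chance. The 16 members with every whole blood sample above every sorted sample summed to 4.18 CPM in 1 CD4 T cell sample, the highest of 6. They summed to 5.34 CPM in 1 Ctrl liver, the highest of 5. All members summed to 60.9 CPM in 1 CD8 T cell sample, the lowest of 6. Ranks 25, 43, 61 and 80 each had a single whole blood sample above 0, at 9.42, 8.49, 6.92 and 6.51 CPM. Such a sample is flagged whatever its value, and ranks 43, 61 and 80 had been named for their large spread in blood. Rank 26 also had a single blood sample above 0, at 9.42 CPM, and the same coefficient of variation. It was not among the groups examined.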

How the results depend on the processing

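Which transcripts were members depended on the rule's limits. Of the 100, 66 were shared with group medians in place of means, 25 with a sorted limit of 1 CPM, 16 with 5 CPM and 50 with a list of 50. Their sum in whole blood cells went from 199.2 to 116.6 and 334.5 CPM with limits of 1 and 5 CPM, and to 133.0 and 295.3 CPM with 50 and 200 members. Their sum in spleen went from 73.67 to 79.94 CPM with TMM scaling, 84.08 CPM with medians, 33.83 and 159.8 CPM with limits of 1 and 5 CPM, and 39.32 and 125.7 CPM with 50 and 200 members. The median ratio to spleen went from 2.167 to 3.284 and 1.731 with those limits and to 3.329 and 1.842 with those list lengths. Members highest in neutrophils went from 26 to 17 of 50 and 46 of 200. Without single samples of whole blood, spleen or neutrophil replicate 5, 78 to 98 members were shared, the sum in spleen was 65.71 to 77.92 CPM and the ratio 1.986 to 2.515.

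The counts of calls in liver were small and moved with the tool and the samples, although both calls at rank 95 and both at rank 84 were kept in every alternative fit that tested them. Ranks 1, 77 and 84, with liver means of 0.203, 0.225 and 0.480 CPM, were left out by the filter at a minimum of 0.5 CPM. Calls between APAP and Ctrl went from 4 to 2 with DESeq2, 2 with a minimum of 0.5 CPM, 10 and 10 with limma at pseudocounts of 0.1 and 1, and 2 with members by a sorted limit of 1 CPM. Those between MDA and Ctrl went from 2 to 6 without TMM, 5 with DESeq2, 1 at 0.5 CPM, 12 and 10 with limma, and to 0, 1, 4 and 1 with members by sorted limits of 1 and 5 CPM, medians and TMM scaling. Those between APAP and MDA went from 3 to 8 and 7 with limma, and to 1 and 1 with members by a limit of 5 CPM and by TMM scaling. Why the tools differ was not tested. With a replicate block the counts were 2, 1 and 1, and the call at rank 1 was lost (adjusted p = 0.056 by edgeR). Deviations of same-numbered livers from their group means were weakly correlated (r from -0.291 to 0.17, over 0.1 in 3 of 15 pairs). Differently numbered livers were not compared, so whether same-numbered livers share their handling was not settled. Leaving out 1 liver gave 2 to 4 calls for APAP against Ctrl (2 without Ctrl 4, APAP 2 or MDA 3), 2 to 4 for MDA against Ctrl (4 without APAP 4 or MDA 4) and 1 to 4 for APAP against MDA (1 without APAP 1, 2, 3 or 5 or MDA 3). No call reversed.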
